A study of Homo sapiens with 14 samples.

Results

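MER4 group integrants are copies of the long terminal repeats (LTRs) and internal sequences that Repbase, a catalogue of repeats, names MER4, which belong to endogenous retroviruses of the ERV1 class. They were taken from the authors' list of transposable element (TE) integrants on hg19 as every integrant whose name, split at its joins, holds a part that starts with MER4 followed by a capital letter or a hyphen, so that MER41 to MER49 stayed out. The rule kept 13996 of 4570939 integrants under 13 names, which are the LTR names MER4A, MER4A1, MER4A1_, MER4B, MER4C, MER4CL34, MER4D, MER4D0, MER4D1, MER4E and MER4E1 and the internal names MER4-int and MER4B-int. Because the authors merged pieces of the same insertion, 814 members carried more than 1 name, and 157 of them joined a MER4 name with a name from outside the group. A joined member counted for each of its names.

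Reads were counted in 12 bulk RNA-seq libraries of human embryonic stem cells (hESC) and cells differentiated from them. The line was H9, an established one, with H1 also named for the foregut libraries. The groups were 2 libraries of hESC in mTSER Plus, 3 of definitive endoderm carrying dCAS9-KRAB without a guide RNA (control endoderm), 3 of endoderm carrying dCAS9-KRAB and the LTR5 single guide RNA (sgRNA endoderm), and 2 each of foregut without (control foregut) and with the sgRNA (sgRNA foregut). dCAS9-KRAB is a cleavage-dead Cas9 joined to a repressor domain that silences chromatin where a guide takes it, here to LTR5B and related LTRs of HERVK. Endoderm received 100 ng/ml activin A for 3 days with CHIR-99021, which activates WNT signalling, at 5 µM on the first day and 0.5 µM on the second, and foregut was harvested after a further 3 days of a pancreatic differentiation protocol. The labels name no dCAS9-KRAB in the hESC, so differentiation and the transgene cannot be told apart between hESC and control endoderm. For the foregut libraries the titles were followed, because their status fields repeat those of other groups. Their growth protocol names H1 cells beside H9, so a difference of line cannot be told apart from stage between foregut and endoderm. The study's methods call its RNA-seq replicates biologically independent, while the labels name no separate cultures, and p-values measure the spread between these libraries. Gastruloid samples of the series hold no count per integrant and were not used here.

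An endogenous retrovirus enters the genome as internal sequence flanked by 2 LTRs, and recombination between the LTRs often leaves a solo LTR. An LTR carries the promoter, enhancer and polyadenylation signals of the virus, so it can start, enhance or end transcripts of the host. Most such elements are silenced in early development by KRAB zinc finger proteins, which recruit TRIM28 and SETDB1, and by DNA methylation. In human pluripotent cells HERVH and its LTR7 are known to be transcribed at high level.

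Each library held between 11583063 and 37152434 reads on genes, and TE levels are given as per-million values (rpm), scaled to those gene reads. The summed level of 7 endoderm markers was 24.3 to 35.0 CPM (per-million gene counts) in hESC, 5410 to 6018 in control endoderm and 808 to 869 in control foregut, and 6 of 7 foregut markers found in the files summed to 1773 to 2325 CPM in control foregut against 64.2 to 83.2 in control endoderm. The sum of the 7 hESC markers overlapped between hESC (1722 to 2730 CPM) and control endoderm (1839 to 2578) and was lower in control foregut (778 to 953). Single markers of this list went both ways. SOX2 held 150 and 176 CPM in hESC and 29.6, 25.3 and 15.1 in control endoderm, and PRDM14 and DPPA4 were lower there as well. POU5F1 held 286 and 620 CPM in hESC and 842, 722 and 637 in control endoderm. Markers of other lineages moved with the groups as well, as 6 of mesoderm summed to 0.931 to 1.19 CPM in hESC, 45.6 to 68.7 in control endoderm, 82.9 to 107 in sgRNA endoderm and 3.03 to 8.79 in foregut, and 5 of neural cells to 82.6 to 89.4, 474 to 547, 361 to 557 and 22.1 to 26.3. The neural sum was nearly all OTX2 (470 to 543 CPM in control endoderm), with 3 of the 5 genes at a mean under 1 CPM there. Their part in the results was not tested. The targeted LTR5B held 5.37 ± 0.291 rpm (SD, n = 3) in control endoderm and 2.63 ± 0.991 in sgRNA endoderm, and 10.8 ± 2.21 (SD, n = 2) in control foregut and 4.93 ± 0.928 in sgRNA foregut. Of the related names, LTR5_Hs went from 18.6 ± 0.758 to 12.4 ± 1.77 rpm in endoderm and overlapped between control (9.10 and 8.75) and sgRNA foregut (4.43 and 10.9). LTR5A and HERVK internal sequence were instead higher in sgRNA endoderm, at 49.7 ± 12.0 against 96.9 ± 11.8 and 58.9 ± 12.1 against 100.0 ± 12.5 rpm. The foregut libraries stood apart from the others, with a read on 9126 to 27718 integrants of any family against 30360 to 74440, and with 20.6 to 42.6 reads per such integrant against 4.32 to 7.27. Members with a read numbered 29 to 96 in a foregut library and 178 to 291 in each of the others. In bulk RNA, fewer cells of a type and less RNA per cell cannot be told apart.

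The first 300 bases of 1 LTR member, a MER4D integrant on chromosome 9, are printed here because it was the higher in hESC of the pair of named members beside HERVH that fell from hESC to endoderm. They were read from hg19 in the direction of the plus strand, since the element's own strand was not given in the files used.
MER4D with RORB as the closest but distant TSS, chr9:76706568-76706867, lower in endoderm: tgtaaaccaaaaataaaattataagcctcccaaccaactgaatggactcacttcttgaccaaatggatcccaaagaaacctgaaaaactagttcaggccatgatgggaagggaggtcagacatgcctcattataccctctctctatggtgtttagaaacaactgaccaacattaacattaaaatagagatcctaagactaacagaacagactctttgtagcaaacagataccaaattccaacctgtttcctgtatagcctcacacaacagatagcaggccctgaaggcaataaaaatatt
This window held neither AGATAA, a core bound by GATA factors, nor ACAATG, bound by SOX factors, on either strand, so no base is in capitals. In the other member of the pair, chr9:76707311-76707741, the first 300 bases held each of these motifs 1 time.

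Most members held no read, as did most integrants of all families. A read was found in any library on 972 of the 13996 members, beside 254621 of all 4570939 integrants, and 116 of the 972 overlapped an exon, beside 20037 of the 254621. Of the members, 3 or more reads in 1 library were found on 405, and 330 of those lay outside exons of the GENCODE annotation. Of all members, 53.9% were intergenic, 26.3% lay in an intron of a protein-coding gene, 16.3% in an intron of another gene, and 3.48% overlapped an exon. Among the 405 members with 3 or more reads the share that overlapped an exon was 18.5%, and 8.40% lay within 5 kb of HERVH internal sequence, against 3.29% of all members.

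Reads were concentrated on a few places. When members within 10 kb of each other were joined into a locus, 737 of 7676 loci held a read, the leading 3 loci held 54.8% of the mean rpm of the group over the 12 libraries, and the leading 10 held 67.6%. The leading locus was chr6:161304012-161310705, 4 members named MER4A1 and MER4-int that overlap exons of the long non-coding RNA ENSG00000292246 inside the non-coding gene ENSG00000224371, with MAP3K4, a kinase of the stress pathway, as the closest protein-coding start site (TSS). The second was chr15:79657737-79666826, with a MER4C integrant inside TMED3, which serves vesicle transport between endoplasmic reticulum and Golgi, where it overlaps an exon annotated for another non-coding RNA. The third was chr4:134178387-134184559, 3 members named MER4A1 and MER4-int, of which 2 overlap an exon of a non-coding RNA, all 175 to 2883 bases from HERVH internal sequence and with PCDH10, a cell adhesion protocadherin, as the closest TSS.

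Summed over all members, the hESC libraries held 77.7 and 73.8 rpm. The control endoderm libraries held 240, 157 and 169 rpm and the sgRNA endoderm libraries 185, 243 and 290. The control foregut libraries held 65.1 and 57.2 rpm and the sgRNA foregut libraries 71.6 and 65.7. Every endoderm library thus stood above every hESC and foregut library, and the leading 3 loci held 63.8% to 77.4% of member reads in the endoderm libraries, 0.120% and 0.164% in hESC, and 0% to 2.78% in foregut. Mitochondrial genes separated the same groups, with 8.30% to 14.4% of gene reads in endoderm, 16.9% and 25.5% in hESC and 17.6% to 34.7% in foregut. With mitochondrial genes left out of the library size, all 62 log2 fold changes named below kept their direction and side of the threshold. Any other part of mitochondrial reads in the MER4 levels was not tested. The other members together held 77.5 and 73.7 rpm in hESC, 49.6 to 73.2 in endoderm and 55.6 to 71.1 in foregut, so that both hESC libraries lay above the rest while endoderm and foregut overlapped. The leading loci were chosen by their mean over all libraries, which their endoderm levels set, so this split follows in part from the choice.

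**Figure D1:**
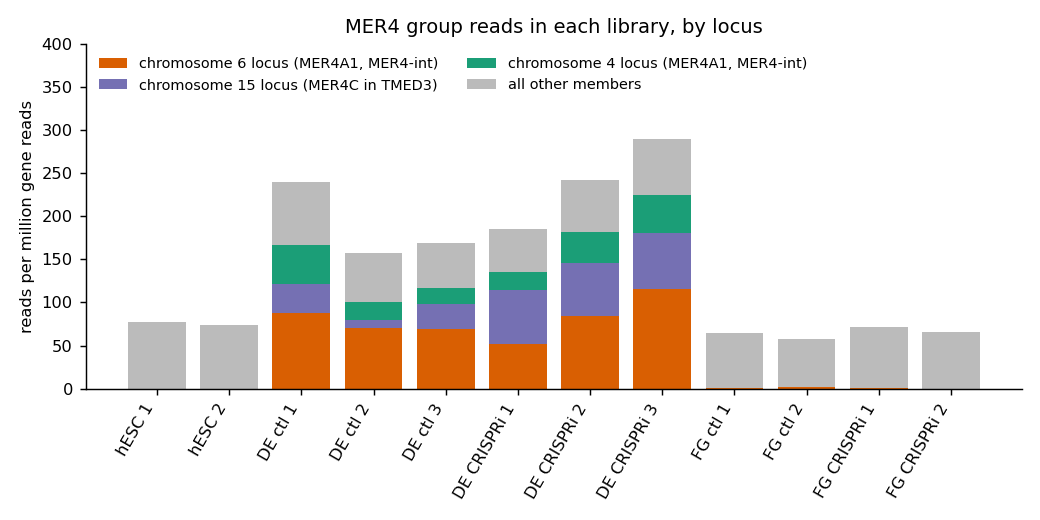
Level of MER4 group members in rpm (y axis) in each of the 12 libraries (x axis), stacked by the 3 leading loci and all other members. The rise in the 6 endoderm libraries lies in the coloured loci, while the grey part stays between 49.6 and 77.5 rpm in all libraries.

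By name, the levels in endoderm were highest for 3 of the 13 names. MER4-int held a mean of 8.60 rpm in hESC, 113 in control endoderm and 9.76 in control foregut. MER4A1, which shares the leading members with MER4-int, held 14.9, 89.1 and 14.0 rpm, and MER4C held 1.04, 24.9 and 1.64. These 3 names followed the leading loci in endoderm. Pooled over all libraries, the chromosome 6 member chr6:161309269-161310705 alone made up 39.4% of MER4-int and 46.9% of MER4A1, and the chromosome 15 member 95% of MER4C. These shares do not hold for hESC, where the chromosome 6 member had a mean of 0.0868 rpm and the chromosome 15 member 0. MER4D1 had the highest mean among the names in hESC at 28.6 rpm, and 42.1% of its reads over all libraries came from the member chr6:167650263-167651024. MER4CL34, MER4D0 and MER4E stayed under 3 rpm in the mean of every group.

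**Figure D2:**
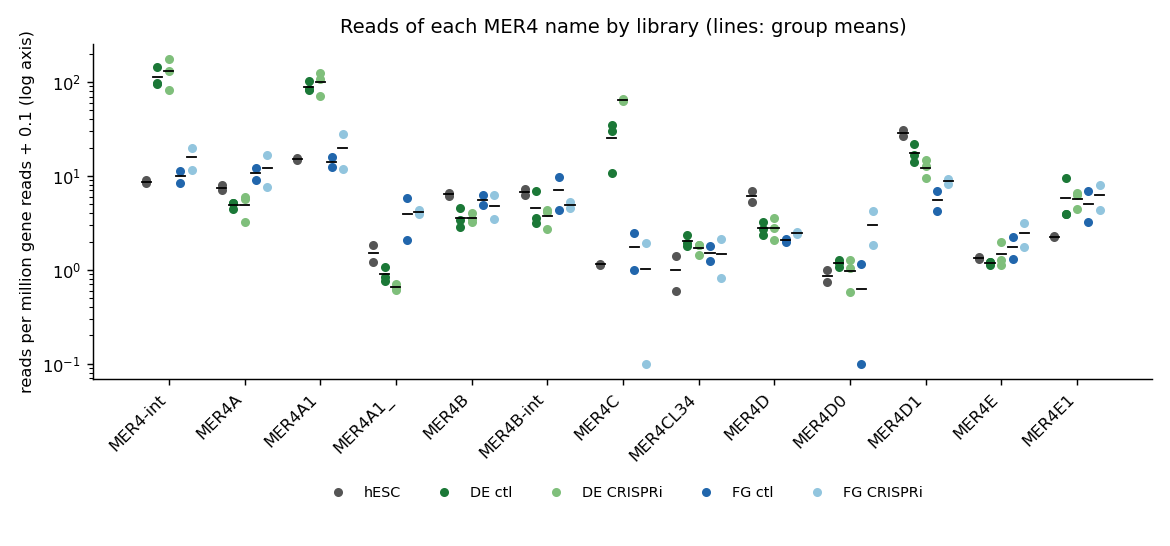
Level in rpm plus 0.1 on a log axis (y axis) for each of the 13 MER4 names (x axis), with a point for each library coloured by group and a black line at each group mean. MER4-int, MER4A1 and MER4C lie highest in the endoderm groups, and MER4D1 is highest in hESC.

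Between hESC and control endoderm, the question was which MER4 names change as pluripotent cells become definitive endoderm. MER4-int, MER4A1, MER4C and MER4E1 were higher in endoderm and MER4D was lower, so that 5 of 13 names passed an adjusted p under 0.05 (edgeR quasi-likelihood test, Benjamini-Hochberg adjustment over all TE names), beside 18.3% of the 1065 names of all families. MER4-int held 8.20 and 8.999 rpm in hESC and 145, 97.5 and 96.0 in control endoderm, a log2 fold change of 3.78 ± 0.29 (SE) with an adjusted p of 2.90e-09. MER4A1 held 14.5 and 15.3 rpm in hESC and 101, 84.8 and 81.3 in control endoderm, a log2 fold change of 2.65 ± 0.26 with an adjusted p of 1.05e-07. MER4C held 1.02 and 1.06 rpm in hESC and 34.5, 10.7 and 29.6 in control endoderm, a log2 fold change of 4.65 ± 0.46 with an adjusted p of 1.07e-07. For these 3 names the lowest endoderm library lay several times above the highest hESC library. Without the leading 3 loci MER4-int changed by 0.49 (adjusted p = 0.213), MER4A1 by -0.046 (0.916) and MER4C by -0.28 (0.680). Those loci were chosen by a mean level that their endoderm reads set, so a smaller rise without them follows in part from the choice. The values describe where the reads lie and are no separate test. Without members that overlap an exon, MER4C was at 0.31 and not called (0.774), while MER4-int at 1.83 (1.01e-05) and MER4A1 at 1.12 (0.00714) kept their call at a smaller fold. Over all alternatives the adjusted p of MER4-int, MER4A1 and MER4C ranged from 2.69e-39, 6.25e-24 and 1.38e-26 to 0.213, 0.916 and 0.774.

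MER4E1, which has no member in the leading loci, held 2.17 and 2.13 rpm in hESC and 9.46, 3.81 and 3.79 in control endoderm, with a log2 fold change of 1.47 ± 0.39 and an adjusted p of 0.0100. MER4D held 5.14 and 6.74 rpm in hESC and 3.10, 2.28 and 2.63 in control endoderm, with a log2 fold change of -1.07 ± 0.30 and an adjusted p of 0.0139. Their groups did not overlap, but the first endoderm library alone stood far above the others for MER4E1. Leaving out either hESC library ended the call of MER4E1 at a like fold (1.56, adjusted p = 0.164 without replicate 1 and 1.38, 0.154 without replicate 2), and that of MER4D ended without the second hESC library (-0.95, 0.0906), the second endoderm library (-0.97, 0.0710) or the third (-1.10, 0.0517). With 1 hESC library left, it is assumed to vary like the endoderm libraries. Without members within 5 kb of HERVH internal sequence MER4D turned to 0.51 (adjusted p = 0.325), and the adjusted p of MER4D ranged from 0.00304 to 0.325 and that of MER4E1 from 0.000263 to 0.164 over all alternatives.

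The other 8 names did not pass the test. MER4D1 held 30.5 and 26.7 rpm in hESC and 21.7, 16.6 and 13.9 in control endoderm, with a log2 fold change of -0.65 ± 0.26 and an adjusted p of 0.0837. MER4CL34 lay at 1.13 ± 0.44 (adjusted p = 0.0815) and MER4B at -0.77 ± 0.30 (0.0855), and the remaining 5 names lay between -0.79 and 0.57 on the log2 scale. MER4D1 was at 0.13 without members that overlap an exon, and it was called lower without neighbours of HERVH (-1.02, adjusted p = 0.00859) or without the first endoderm library (-0.82, 0.0198), with a range over the alternatives of 0.00859 to 0.837. MER4CL34 was called with every name of 1 read or more (0.0444), with TE reads as the library size (1.33, 0.0275) or without the first hESC library (0.0328, range 0.0275 to 0.546), and MER4B without the first endoderm library (-0.97, 0.0227, range 0.0227 to 0.441). HERVH internal sequence fell beside these names from 7395 ± 1178 rpm in hESC to 4765 ± 757 in control endoderm, and its part in the values of nearby members was not tested.

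**Figure D3:**
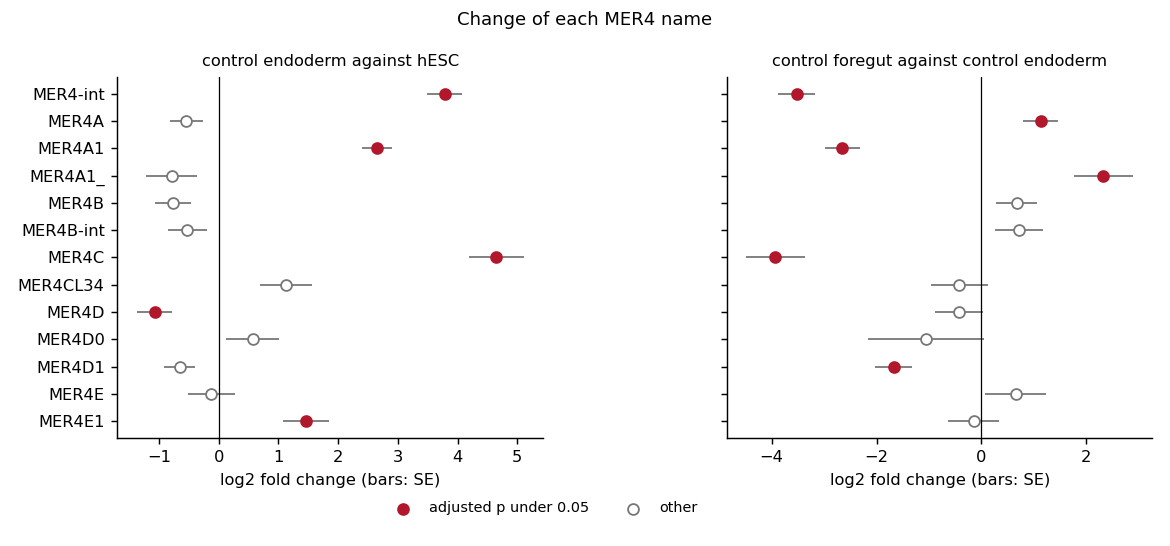
Log2 fold change (x axis, bars are SE) of each MER4 name (y axis) for control endoderm against hESC (left) and control foregut against control endoderm (right), with filled points at an adjusted p under 0.05. MER4-int, MER4A1 and MER4C lie to the right of 0 on the left panel and to the left of 0 on the right panel.

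At the level of places, the leading loci were near 0 in hESC and among the highest of the group in endoderm. The chromosome 6 locus held 0.127 and 0.0887 rpm in hESC, which were 3 and 2 reads, and 87.4, 70.1 and 68.7 in control endoderm, 698-fold higher in the means. The chromosome 15 locus held 0 in both hESC libraries and 34.2, 10.0 and 29.3 rpm in control endoderm, at least 377-fold higher when 3 reads over the hESC libraries together are taken as the floor. The chromosome 4 locus held 0 in both hESC libraries and 45.3, 20.1 and 19.2 rpm in control endoderm, at least 433-fold higher. In all 3 loci the endoderm libraries stood far above the hESC libraries.

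The genes around these loci did not follow one pattern. TMED3, which holds the MER4C member, was measured at 74.5 and 63.8 CPM in hESC and 89.1, 58.9 and 57.5 in control endoderm, with overlapping groups (log2 fold change 0.05 ± 0.22, adjusted p = 0.879). MAP3K4 was at 51.1 CPM in hESC and 60.2 in control endoderm (0.31 ± 0.19, adjusted p = 0.229). PCDH10 rose from 2.96 to 278 CPM, a log2 fold change of 6.62 ± 0.35 with an adjusted p of 2.22e-09. ENSG00000224371, the non-coding RNA at the chromosome 6 locus, was at 0 in hESC and 1.05 CPM in control endoderm, with an adjusted p of 0.000172. The authors counted genes and TEs with a joint annotation, so how reads were divided between a member and the transcript around it depends on that annotation.

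Integrants outside exons were tested on their own, where 19 of 176 tested members passed an adjusted p under 0.05 with a fold over 2, beside 3.78% of the 31441 integrants of all families, and 10 were higher and 9 lower in endoderm. The highest of them, chr4:134178387-134181851 (MER4A1 joined with MER4-int), held 0 in hESC and 26.6, 10.4 and 9.59 rpm in control endoderm, at least 239-fold higher (adjusted p = 6.95e-35). A MER4A1 member in an intron of MIR4432HG, a microRNA host gene, held 0 in hESC and 3.86, 2.74 and 1.47 rpm in control endoderm, at least 41.3-fold higher (9.08e-14). The closest protein-coding TSS to this member is that of BCL11A, 128968 bases away. BCL11A itself, a zinc finger repressor, was lower in endoderm, at 12.8 CPM in hESC and 5.21 in control endoderm (log2 fold change -1.22 ± 0.25, adjusted p = 0.00108).

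The MER4E1 member chrX:84212666-84213322, 45561 bases from the TSS of the mitochondrial gene APOOL, held 0 in hESC and 4.68, 0.697 and 0.550 rpm in control endoderm, at least 30.3-fold higher (adjusted p = 4.26e-11). A single library set most of that mean. APOOL lay at 2.57 CPM in hESC and 2.87 in control endoderm (adjusted p = 0.592). Smaller rises from 0 were measured at chrX:45160428-45164784 (MER4-int joined with LTR49), at least 12.7-fold, and at chr14:53721088-53723321 (MER4A1 joined with MER4-int), at least 9.93-fold. None of these 5 members held a read in the hESC libraries, and outside the chromosome 4 member none held a read in control foregut.

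Neighbours of HERVH were found among members that moved either way, since 2 of the 5 largest falls and 2 of the 5 largest rises lie within 5 kb of its internal sequence, the chromosome 4 member 2883 and the MIR4432HG member 2509 bases from it. The MER4D members chr9:76706568-76707015 and chr9:76707311-76707741 lie 216 and 959 bases from HERVH internal sequence, and RORB, a nuclear receptor, has the closest TSS, 405236 and 404510 bases away. The first held 2.68 and 3.01 rpm in hESC and 0.102, 0.232 and 0.0611 in control endoderm, 21.6-fold lower (adjusted p = 6.89e-09), and the second held 0.637 and 1.95 in hESC and 0, 0.139 and 0 in control endoderm (3.14e-05). Both were low in every endoderm library, and RORB fell as well, from 19.1 CPM in hESC to 0.887 in control endoderm (log2 fold change -4.34 ± 0.40, adjusted p = 6.59e-07). The call of the second member ended without the second hESC library (adjusted p = 0.121, range over the alternatives 4.05e-06 to 0.373).

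A MER4A member in introns of the non-coding RNAs DANT1 and DANT2 held 4.67 and 5.28 rpm in hESC and 0.610, 0.743 and 0.305 in control endoderm, 8.997-fold lower (adjusted p = 2.23e-07). DANT1 was at 3.07 CPM in hESC and 1.48 in control endoderm and was not called (log2 fold change -0.98 ± 0.34, adjusted p = 0.0305), as its fold was under 2. DANT2 lay the other way, at 0.173 and 0.409 CPM, and was not called either (1.26 ± 0.81, adjusted p = 0.237). Falls of lower members were measured in an intron of UTRN, a relative of dystrophin, at chr6:144919207-144920060 (MER4D1, 1.27 and 0.222 rpm in hESC and 0.0508, 0.0929 and 0 in control endoderm, adjusted p = 0.00634), and in an intron of the zinc finger gene ZNF718 at chr4:133172-136982 (MER51 pieces joined with MER4A1, log2 fold change -2.69 ± 0.80, adjusted p = 0.0237). The UTRN member lost its call without the first hESC library (adjusted p = 0.646) or the third endoderm library (0.0636), and the ZNF718 member without the first hESC library (0.354) or the third endoderm library (0.141), with ranges over the alternatives of 0.000579 to 0.646 and 0.00514 to 0.549. UTRN itself was at 35.4 CPM in hESC and 40.2 in control endoderm (adjusted p = 0.392), while ZNF718 fell with its member, from 6.55 to 2.91 CPM (log2 fold change -1.10 ± 0.28, adjusted p = 0.00499).

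Of the members that overlap exons, the MER4D1 member chr6:167650263-167651024 was the highest of the group in hESC. It held 19.9 and 16.8 rpm in hESC, 8.29, 8.64 and 6.05 in control endoderm, 2.52, 7.08 and 4.06 in sgRNA endoderm and 0 in all 4 foregut libraries. Its level thus stood in the order of hESC, endoderm and foregut without overlap between these stages. With exon-overlapping members in the fit, its log2 fold change from hESC to control endoderm was -1.20 ± 0.37 (adjusted p = 0.0303), and the number of members called rose from 19 to 32.

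Genes near members changed about as often as other genes between hESC and endoderm. Of 3189 tested protein-coding genes with a TSS within 50 kb of a member outside exons, 508 were higher and 442 lower in endoderm, which is 29.8% beside 29.2% of all 15277 protein-coding genes tested, with a median log2 fold change of 0.03 beside 0.00. By name, genes near MER4E1 were called higher 79 times and lower 37 times among 389 (median 0.22), and those near MER4A1_ 30 and 13 times among 123 (median 0.34). Genes near MER4-int were called higher 53 times and lower 62 times among 386 (median -0.02). Of all protein-coding genes tested, 2334 were higher and 2124 lower. Other names were often nearer even, as MER4B with 91 and 87 and MER4D with 63 and 55, while MER4B-int had 53 and 31. These counts describe where genes lie and were not tested against other genes.

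The 5 largest rises near members were those of GATA6, HAND1, PRDM1, ACSM4 and APOL3. GATA6, a transcription factor of endoderm and one of the markers used here, held 0 in both hESC libraries and 440, 327 and 330 CPM in control endoderm, at least 5625-fold higher (adjusted p = 6.88e-11), and lies 46701 bases from a MER4D0 member. HAND1, a factor of heart and extraembryonic mesoderm and also on the marker lists, held 0 in hESC and 13.9, 11.8 and 24.5 CPM in control endoderm, at least 258-fold higher (6.45e-08), with a MER4A member 36031 bases away. PRDM1, a repressor needed by germ cells, held 0 and 0.0443 CPM in hESC and 44.95, 49.6 and 35.2 in control endoderm (3.74e-10), with a MER4A1 member 41618 bases away. No closest member of these 3 genes held a read in any library.

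ACSM4, an acyl-CoA synthetase, rose from 0 to 3.05, 13.5 and 11.2 CPM, at least 142-fold, with a joined MER4-int and MER4C member 5932 bases from its TSS. APOL3, an apolipoprotein L, rose from 0 to 6.51, 8.13 and 8.12 CPM, at least 117-fold, with a MER4CL34 member 805 bases from its TSS. Those members were likewise without reads. Falls were led by BTBD17, which held 12.0 and 10.7 CPM in hESC and 0, 0.0929 and 0.0611 in control endoderm, and by CP, the copper protein ceruloplasmin, which went from 1.15 and 1.02 CPM to 0, at least 20.8-fold lower. TMEM26 fell from 4.42 and 4.17 CPM to at most 0.0611, IDO1, which degrades tryptophan, fell from 4.38 and 4.12 to at most 0.0611, and GDPD2, a phosphodiesterase, fell 66.9-fold from 35.2 and 31.8 to 0.305, 0.464 and 0.733. All 10 genes kept their call under every alternative run that changes a gene's test, though GATA6, HAND1 and PRDM1 have no member within 20 kb by the distances above.

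**Figure D4:**
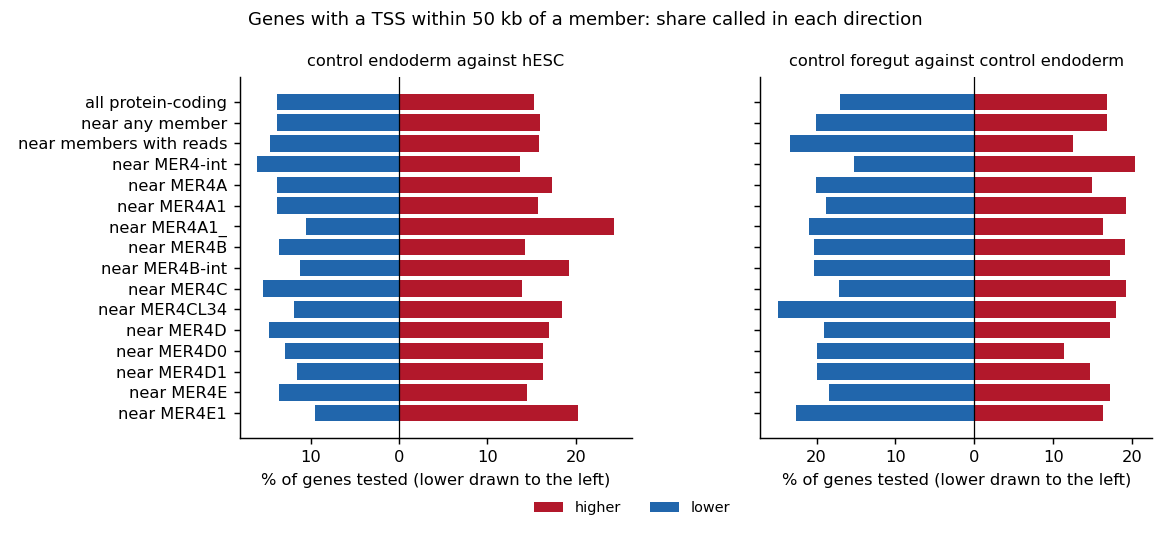
Share of tested protein-coding genes called higher (drawn to the right) or lower (drawn to the left) in % (x axis) among all such genes, those near any member and those near each MER4 name (y axis), for control endoderm against hESC and control foregut against control endoderm. The bars of genes near any member have about the length of those of all protein-coding genes in endoderm against hESC.

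The sgRNA against LTR5 was compared with control in endoderm to ask whether silencing these LTRs changes MER4 transcripts. No MER4 name and no member outside exons passed the test. Of the 13 names 0 were called (edgeR), beside 0% of 1043 names of all families, and MER4C alone passed at an unadjusted p under 0.05 with a fold over 2. Of 168 members 0 were called, beside 0.0254% of 23581 integrants, with 10 members past an unadjusted p under 0.05 with a fold over 2 and 0 calls by voom and limma. DESeq2 also called 0 but gave no adjusted p for 153 of the 168.

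MER4C stood at 34.5, 10.7 and 29.6 rpm in control endoderm and 63.5, 61.9 and 65.9 in sgRNA endoderm, a log2 fold change of 1.37 ± 0.33 with an adjusted p of 0.246. The groups did not overlap, and nearly all reads came from the member in TMED3, which held 33.7, 9.84 and 28.8 rpm without and 61.8, 60.9 and 64.6 rpm with the sgRNA (log2 fold change 1.39 ± 0.35, adjusted p = 0.115 with exon-overlapping members in the fit). TMED3 held 68.5 CPM in control and 75.7 in sgRNA endoderm (adjusted p = 0.999). MER4C lay higher by between 0.75 and 1.65 over the 20 alternatives, with adjusted p from 0.0566 to 0.998.

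The other leading loci overlapped between the groups. The chromosome 6 locus held 51.9, 83.8 and 116 rpm in sgRNA endoderm against 87.4, 70.1 and 68.7 in control. The chromosome 4 locus held 21.0, 36.2 and 43.7 rpm against 45.3, 20.1 and 19.2. MER4-int and MER4A1 accordingly lay at 0.21 ± 0.26 and 0.18 ± 0.23 on the log2 scale, with adjusted p of 0.904 for both. MER4D1 was at 21.7, 16.6 and 13.9 rpm in control and 9.30, 14.6 and 12.5 in sgRNA endoderm (-0.51 ± 0.27, adjusted p = 0.904). The remaining 9 names lay between -0.51 and 0.33. Of the 168 members, 19 lie within 100 kb of an LTR5B or LTR5_Hs integrant, and they had a median log2 fold change of -0.89 against 0.14 for the other 149, with 7 of 19 and 79 of 149 above 0. This difference was not tested. In foregut, 9 of 21 such members and 52 of 127 others lay above 0, with medians of -4.32 and -1.53.

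Of 3125 genes near members, 3 were called in the sgRNA endoderm, all lower, which is 0.0960% beside 0.0466% of protein-coding genes. HLA-DQB1, a chain of an MHC class II molecule, held 214, 157 and 165 CPM in control and 34.7, 52.3 and 36.3 in sgRNA endoderm, 4.34-fold lower (adjusted p = 0.00223), with a MER4CL34 member 2179 bases from its TSS. NTS, the peptide neurotensin, held 329, 219 and 290 CPM against 49.2, 114 and 78.2, 3.48-fold lower (0.0389), and SERPINB9, an inhibitor of granzyme B, held 250, 211 and 143 against 35.8, 84.0 and 54.0, 3.48-fold lower (0.0389). In all 3 genes the groups were separate, and hESC held at most 10.8 CPM of any of them. HLA-DQB1 has close relatives in the genome whose reads the counting could divide otherwise. HLA-DQB1 kept its call in every alternative run that changes its test, while NTS and SERPINB9 each lost theirs in 8, including without the first or second control library or the replicate 1 or 3 of the sgRNA group, where adjusted p reached 0.211 for NTS and 0.261 for SERPINB9 (0.601 and 0.507 over all alternatives). The closest members of HLA-DQB1 and NTS held 0 reads and that of SERPINB9 held 2 in all libraries.

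In foregut, the same question was asked with 2 libraries a group. No MER4 name of 13 and no member of 148 passed the test, beside 0.0976% of 1025 names and 0.00595% of 50453 integrants, and 0 of both passed at an unadjusted p under 0.05 with a fold over 2 (voom with limma called 1 member). With 2 libraries a group, these counts do not show that members were unchanged. MER4D0 held 0 and 1.05 rpm in control and 4.08 and 1.73 in sgRNA foregut, with a log2 fold change of 2.63 ± 1.77. MER4-int held 8.21 and 11.3 rpm in control and 11.6 and 19.6 in sgRNA foregut (0.67 ± 0.53). The other 11 names lay between -0.59 and 0.72, all with an adjusted p of 0.998. The MER4A member chr2:11290801-11291470, which overlaps an exon of a gene beside SLC66A3, held 1.90 and 4.79 rpm in control and 8.95 and 7.50 in sgRNA foregut and no more than 0.186 in any hESC or endoderm library (log2 fold change 1.38 ± 0.91, adjusted p = 0.666).

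The SE of these log2 fold changes ranged from 0.51 for MER4A1 to 2.01 for MER4C, which limits the changes that 2 libraries a group could show. The difference of the sgRNA effect between foregut and endoderm was tested with an interaction term, and 0 of 13 names passed, with MER4D1 alone at an unadjusted p under 0.05 (log2 difference 1.22 ± 0.49, adjusted p = 0.430 by edgeR).

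Of 3138 genes near members, 4 were called in sgRNA foregut, which is 0.127% beside 0.191% of protein-coding genes. BAAT, which conjugates bile acids, held 0.980 and 1.10 CPM in control and 87.2 and 103 in sgRNA foregut, 91.0-fold higher (adjusted p = 5.39e-39). A MER4B-int member lies 5297 bases from its TSS, while the paper describes a MER11A LTR, outside the MER4 group, as its main promoter. BAAT kept its call in every alternative run that changes its test. TMEM141 held 33.9 and 61.5 CPM in control and 1.95 and 0.721 in sgRNA foregut, 35.8-fold lower (6.44e-20), and lost its call with voom and limma alone (0.0949). SLC38A4, an amino acid transporter, held 0 in control and 3.30 and 5.00 CPM in sgRNA foregut, at least 96.5-fold higher (0.00914), and GSTA1, a glutathione transferase, held 131 and 123 against 38.4 and 50.2, 2.87-fold lower (0.00985). GSTA1 lost its call when any of the 4 libraries was left out and SLC38A4 when either control library was, with adjusted p up to 0.432 and 0.762, and GSTA1 too has close relatives in the genome. The closest members of these 4 genes held 0 reads in all libraries.

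Between control endoderm and control foregut, the question was what became of MER4 transcripts at the next stage. The 3 endoderm libraries are those used above, so the comparisons share them. MER4-int, MER4A1, MER4C and MER4D1 were lower in foregut and MER4A and MER4A1_ higher, so that 6 of 13 names passed the test, beside 33.0% of 1052 names of all families, whose median moved by 0.69 on the log2 scale. MER4-int went from 145, 97.5 and 96.0 rpm to 8.21 and 11.3 (-3.52 ± 0.35, adjusted p = 8.51e-06). MER4A1 went from 101, 84.8 and 81.3 rpm to 15.7 and 12.2 (-2.65 ± 0.33, 4.59e-05), and MER4C from 34.5, 10.7 and 29.6 to 0.888 and 2.40 (-3.93 ± 0.56, 0.000115). The leading loci fell with them, the chromosome 6 locus to 0.551 and 1.35 rpm, the chromosome 15 locus to 0 and 0, and the chromosome 4 locus to 0 and 0.242. Without the leading 3 loci MER4-int was at -0.38 (adjusted p = 0.391), MER4A1 at -0.047 (0.922) and MER4C at 0.99 (0.263). As those loci were chosen by a level that endoderm set, the smaller falls follow in part from the choice. Without exon-overlapping members MER4C turned to 0.13 and was not called (0.912), MER4-int was at -1.79 (0.00844) and MER4A1 at -1.41 (0.0303), and the highest adjusted p over all alternatives was 0.391, 0.922 and 0.912 for MER4-int, MER4A1 and MER4C.

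MER4D1 went from 21.7, 16.6 and 13.9 rpm in control endoderm to 4.14 and 6.78 in control foregut (-1.67 ± 0.35, adjusted p = 0.00212). MER4A1_ went from 0.661, 0.743 and 0.977 rpm to 5.73 and 1.99 (2.33 ± 0.57, 0.00566), and MER4A from 4.37, 5.06 and 5.01 to 9.01 and 12.0 (1.13 ± 0.33, 0.0167). Groups were separate for all 3 names. With TE reads in place of gene reads as the library size, MER4A was at 0.38 and MER4A1_ at 1.41 and neither was called (adjusted p = 0.406 and 0.0660), while the 4 falls became larger. MER4A also lost its call without any of the 3 endoderm libraries (1.09, 1.18 and 1.17 with adjusted p = 0.0516, 0.0762 and 0.0955, range over the alternatives 0.00856 to 0.406), and without exon-overlapping members MER4A (0.75, 0.198) and MER4D1 (-0.69, 0.214) lost theirs, as MER4C did.

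Of 199 members outside exons, 18 were called, beside 5.28% of 44916 integrants, and 13 were lower and 5 higher in foregut, where 697 integrants of all families were lower and 1674 higher. With TE reads as the library size the split went further the same way, to 36 lower and 1 higher. Without the first or the second foregut library it turned, with more members called higher than lower. Such a fit leaves 1 foregut library, which is assumed to vary like the endoderm libraries. The 5 largest falls by fitted log2 fold change all went to 0 in both control foregut libraries. Those libraries held a read on only 96 and 89 members, at 22.1 and 23.9 reads per such member. Control endoderm libraries held a read on 219 to 271 members, at 12.5 to 17.5 reads each. The part of this difference in the values of 0 was not tested, and folds against 0 rest on the floor of 3 reads. By the ratio of means the intergenic chr4:134178387-134181851 fell 128-fold, from 15.5 to 0.121 rpm. The MER4D1 member chrX:124520881-124521559, 1128 bases from HERVH, held 5.59, 3.11 and 3.97 rpm in control endoderm, at least 98.3-fold more than foregut (adjusted p = 1.69e-14). The MER4A1 member in MIR4432HG was at least 62.6-fold lower (1.30e-10), and chr1:223197433-223197736 (MER4A1, 2 bases from HERVH) held 1.93, 3.39 and 2.02 rpm and was at least 56.9-fold lower (6.97e-10). The MER4E1 member near APOOL was at least 45.9-fold lower and chrX:16598539-16602071 (MER4-int joined with MER4A1) at least 39.2-fold lower. HERVH internal sequence fell beside them from 4765 ± 757 to 118 ± 21.2 rpm, and its part was not tested. The APOOL neighbour lost its call without the first endoderm library (adjusted p = 0.415, range over the alternatives 2.15e-18 to 0.415). Of the genes closest to these members, TLR5, by the chromosome 1 member, was higher in foregut (1.96 ± 0.61, adjusted p = 0.0352). PCDH10 was lower (-5.82 ± 0.48, 4.12e-05), and BCL11A and APOOL were not called.

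The 5 largest rises in foregut were on lower levels. The MER4A1_ member in an intron of ADGRA3, an adhesion receptor, held 0.153, 0.511 and 0.244 rpm in control endoderm and 3.71 and 1.99 in control foregut, 9.42-fold higher (adjusted p = 0.00181), and made up 59.0% of the reads of its name. ADGRA3 rose as well, from 28.8 to 63.2 CPM (1.16 ± 0.23, adjusted p = 0.00467). The MER4D1 member chr7:99646631-99646964, which lies 433 bases from the TSS of the zinc finger gene ZSCAN21, held 0.407, 0.0464 and 0.122 rpm in control endoderm and 0.950 and 2.66 in control foregut, 9.42-fold higher (0.0248). ZSCAN21 was at 19.95 and 17.9 CPM (adjusted p = 0.639). Here the ADGRA3 member and its host moved the same way, while ZSCAN21 was not called. The genes at the other rises had negative log2 fold changes, as given below.

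A MER4A member in an intron of ZNF765, 6595 bases from an LTR5 integrant, held 0 in control endoderm and 1.32 and 0.996 rpm in control foregut, at least 22.2-fold higher (adjusted p = 0.000664). It held 0.0942 and 0 in sgRNA foregut, a difference from control foregut that was not called. The second sgRNA foregut library held a read on only 29 members. The joined member chr7:7146825-7150281 (MER4-int and MER4A1) was at least 19.9-fold higher (0.00198), and a MER4E1 member in an intron of OSBP2, a lipid-binding protein, held 0, 0.0929 and 0.0611 rpm in control endoderm and 1.99 and 0.404 in control foregut (0.0192). C1GALT1, by the joined member, was instead lower in foregut, from 89.4 to 18.0 CPM (log2 fold change -2.30 ± 0.32, adjusted p = 0.00071). OSBP2 (-0.80 ± 0.73, 0.400) and ZNF765 (-0.44 ± 0.33, 0.314) were not called. The 5 falls above each kept their call in 13 to 15 of 16 alternatives and the 5 rises in 6 to 13. With TE reads as the library size the members in ADGRA3 and OSBP2, at ZSCAN21 and at chr7:7146825-7150281 were not called. With a replicate block 0 members were called higher in foregut and 6 lower, so that each of these rises lost its call.

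Some of the rises lost their call when a library was left out, while the fitted log2 fold change stayed positive. The ADGRA3 member (3.24 with all libraries) was at 2.97 and 3.13 without the first or the third endoderm library (adjusted p = 0.0675 and 0.0818). The ZSCAN21 neighbour (3.19) was at 2.75 and 2.98 without the second or the third (0.453 and 0.324), and chr7:7146825-7150281 (7.76) at 7.83 and 7.89 (0.0618 and 0.0513). The OSBP2 member (4.47) was at 2.76 without the first foregut library and at 3.98 to 5.24 without 1 of the endoderm libraries (0.125 to 0.252), and over all alternatives the adjusted p of these 4 members reached 0.820. The count of members called moved from 18 to 9, 10 and 9 without endoderm replicates 1, 2 and 3. It was larger without either foregut library, where 1 library was left in that group.

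Genes near members were called in 1203 of 3263 cases, 548 higher and 655 lower in foregut, which is 36.9% beside 33.8% of protein-coding genes, with median log2 fold changes of -0.18 and -0.08. VTN, the plasma protein vitronectin, led the rises by level, from 0, 0.0464 and 0.183 CPM to 222 and 357, 3782-fold higher (adjusted p = 2.03e-06). ESM1, a secreted proteoglycan, rose from 0 to 32.3 and 29.1 CPM (at least 589-fold), CATIP from 0 to 14.1 and 26.4 (at least 389-fold), MAB21L4 from 0 to 7.63 and 15.8 (at least 225-fold) and GLYAT, which conjugates glycine, from 0 to 10.4 and 11.4 (at least 208-fold). Each was at 0.127 CPM or below in both hESC libraries. RFPL2 fell from 94.7, 39.5 and 87.0 CPM to 0 (at least 1716-fold), and CD177, a surface protein of neutrophils, from 49.3, 40.5 and 49.8 to 0 (at least 1082-fold). LGALS12, a galectin, fell from 27.8, 36.8 and 47.3 CPM, HTR7, a serotonin receptor, from 28.3, 15.9 and 10.8, and TMPRSS11E, a protease, from 18.8, 16.9 and 16.5, each to 0 in control foregut. CD177 has a MER4C member 3158 bases from its TSS with 14 reads in all, and LGALS12 a MER4D1 member 1416 bases away without reads.

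Genes of the machinery that silences endogenous retroviruses were read from a list of 18, of which 17 were found in the files. The list also holds TET1, an enzyme that starts the removal of DNA methylation. In endoderm against hESC 0 were called higher and 4 lower, beside 29.2% of all protein-coding genes called. DNMT3B, a DNA methyltransferase, fell from 1212 to 211 CPM (log2 fold change -2.45 ± 0.19, adjusted p = 7.60e-08), HELLS, a chromatin remodeller, from 107 to 26.1, SUV39H2, a histone methyltransferase, from 61.3 to 18.3, and MORC2, a partner of the HUSH silencing complex, from 70.1 to 32.3. TRIM28, the corepressor that KRAB zinc fingers recruit, went from 1209 to 717 CPM (-0.68 ± 0.17, adjusted p = 0.00553), and SETDB1, the histone methyltransferase it brings in, from 44.03 to 61.5 CPM (0.56 ± 0.18, 0.0260), both under the fold of 2. In foregut against endoderm 0 were higher and 5 lower, beside 33.8% of protein-coding genes called, among them DNMT3B (211 to 19.4 CPM), TET1 (102 to 12.7) and DNMT1 (64.3 to 25.7), while in both sgRNA comparisons 0 of 17 were called. The median log2 fold change of the 17 genes was -0.49 in the former comparison and -0.20 in the latter.

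As a description of sequence, the first 300 bases on the genome's plus strand of all 7534 MER4 LTR members of at least that length, which for elements on the minus strand is the part at their 3′ end, were searched on both strands for 4 short motifs, beside the 1486120 TE integrants of all families of that length. AGATAA was found in 41.7% of MER4 LTR members and 16.9% of all integrants. The share was 65.9% in MER4A, 62.2% in MER4C, 57.7% in MER4E, 57.2% in MER4A1_, 45.1% in MER4A1, 42.8% in MER4E1, 41.8% in MER4CL34, 35.7% in MER4D1, 26.7% in MER4B, 24.7% in MER4D0 and 23.5% in MER4D. ACAATG was found in 8.73% and 16.5%, TATAAA, a core promoter motif, in 36.8% and 25.7%, and AATAAA, the polyadenylation signal, in 64.8% and 39.9%, where motifs ending and starting with A can share bases. The content of A and T was 58.9% and 56.8%. Members with 3 or more reads in 1 library held AGATAA in 40.2% of 286, and the others in 41.8% of 7248.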

How the data were processed

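Reads were counted in 12 bulk mRNA libraries. Per the paper's methods, the authors made the libraries with a stranded TruSeq kit, mapped them to hg19 with HISAT2 and counted reads on genes and TE integrants with featureCounts, keeping uniquely mapped reads with a mapping quality over 10, and the deposited values are raw counts. The submitters' processing notes list HISAT2, Cell Ranger, hg19 and hg38. Unique mapping leaves out reads that young, near-identical copies share, which lowers their counts.

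From the counts, TE levels were computed as per-million values scaled to gene reads (rpm) and gene levels as CPM. Tests used edgeR 4.0.16 (quasi-likelihood, Benjamini-Hochberg adjustment over all features), on R 4.3.3, with gene reads as library size and TMM factors from genes, for features with at least 3 reads in 1 library, fitted on the groups compared. The study used voom, which was run as an alternative with limma 3.58.1, beside DESeq2 1.42.0, other filters, other library sizes and the omission of each library. Names were called at an adjusted p under 0.05, and integrants and genes also needed a fold over 2. Integrants that overlap a GENCODE exon were left out of the integrant test. A gene was near a member with its TSS within 50 kb. Named members and genes were the 5 largest called rises and falls in each comparison with separate groups and a mean of at least 0.2 rpm or 1 CPM, the 10 highest members outside exons, and their host or closest genes, while members that overlap exons were chosen after their values were seen. A fold against a group at 0 was computed against 3 reads over the group. Scripts were tested on simulated data. The members and lists were chosen with earlier results of these data known. Sequences of the other named members are not reported here.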

Additional observations from a re-analysis of the deposited data

How the results depend on the processing

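Counts of calls moved with the settings as follows. For names in endoderm against hESC, the count of 5 became 3 in 1 fit over all 12 libraries and 2 without the 3 leading loci, and ranged from 3 to 8 when 1 library was left out. For names in foregut against endoderm, the count of 6 became 3 without exon-overlapping members and 3 without the 3 leading loci, and ranged from 5 to 10 when 1 library was left out. At an unadjusted p under 0.05 with a fold over 2, the count of 0 became 1 for the sgRNA in endoderm and 1 for the interaction, which ranged from 0 to 1 when 1 library was left out. For members in endoderm against hESC, the count of 19 became 43 unadjusted, 12 with DESeq2, which gave no adjusted p for 126 of 176, 9 with voom and limma, 11 with every member of 1 read or more, 29 with at least 10 reads in total, 3 in 1 fit over all libraries and 32 with exon-overlapping members, and ranged from 9 to 17 when 1 library was left out. For members in foregut against endoderm, the count of 18 became 34 unadjusted, 0 with DESeq2, which gave no adjusted p for 113 of 199, 8 with every member of 1 read or more, 37 with TE reads as library size and 36 with exon-overlapping members, and ranged from 9 to 72 when 1 library was left out. For members under the sgRNA, the count of 0 became 10 unadjusted in endoderm and 1 with voom and limma in foregut. For near genes in endoderm against hESC and in foregut against endoderm, a window of 20 kb gave 422 and 565 and one of 100 kb gave 1630 and 1999. For near genes under the sgRNA in endoderm, the count of 3 became 75 unadjusted, 14 with DESeq2, 1 with voom and limma, 32 with every gene of 1 read or more, 1 with at least 10 reads in total and 1 in 1 fit, and ranged from 1 to 5 when 1 library was left out. Under the sgRNA in foregut, the count of 4 became 91 unadjusted, 2 with voom and limma, 39 in 1 fit and 9 with a window of 100 kb, and ranged from 2 to 96 when 1 library was left out. Where 1 library was left in a group, it is assumed to vary like those of the other group. Apart from fewer features or libraries tested, the cause of these shifts was not tested.

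In endoderm against hESC the sign turned for MER4A1 (-0.046) and MER4C (-0.28) without the 3 leading loci, for MER4D (0.51) without neighbours of HERVH and for MER4D1 (0.13) without exon-overlapping members, and in foregut against endoderm for MER4C without exon-overlapping members (0.13) and without the 3 leading loci (0.99). Of 1041 alternatives to the 62 named values, 918 kept the direction and side of the threshold, of which 27 at a window of 20 kb and 27 at 100 kb could not move a gene's own test, while 109 lost the call, 8 gained it and 6 turned the sign.

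The labels tie replicate numbers to no shared culture or batch, so the numbers were not taken as pairs. Correlations of deviations were 0.0331 and 0.0530 between hESC and endoderm, -0.0240, -0.0451 and 0.00863 between the endoderm groups, -0.209 between the foregut groups, and 0.179 and 0.148 over the only 2 pairs of control endoderm and foregut. With a replicate block the counts of members became 9 in endoderm against hESC and 6 in foregut against endoderm, and those of near genes 1 under the sgRNA in endoderm and 2 in foregut, or 16 in foregut with crossed numbers, a setting chosen after seeing the data, as were those without the leading loci and without neighbours of HERVH. Depth limits members of few reads, which most were.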
